A study of Mus musculus with 9 samples.

Results

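The levels of 10 antioxidant enzyme genes were followed in sorted cells of the mouse ventral midbrain around birth: the superoxide dismutases Sod1 and Sod2, catalase (Cat), the glutathione peroxidases Gpx1, Gpx3 and Gpx4, the peroxiredoxins Prdx1, Prdx2 and Prdx5, and thioredoxin (Txn1). They are 10 of the 32661 genes in the count tables once spike-ins and mitochondrial entries are left out, and all 10 passed the filter on low counts in the fit of the VGAT plates. The genes were chosen by name with their levels at E16 and at P0 in view, so that the values of E16 against P0 below are a description and carry no test. All mice carried VGAT-Cre, the Ai14 reporter, which leaves tdTomato in any cell with present or past activity of the VGAT promoter, and Pitx3-GFP, which labels mostly dopamine neurons. Single cells were sorted into plates of up to 384 wells and sequenced by SORT-seq, a plate form of CEL-seq2 in which each transcript gives a tag near its 3′ end and a random molecular barcode. Cells with tdTomato filled 4 plates at E16 and 3 plates at P0 (VGAT plates), and cells with tdTomato and GFP filled 1 plate at each stage (VGAT+PITX3 plates). No group was treated, and the sources do not tie a plate to an animal, so that the spread between plates may be partly technical.

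These enzymes work in steps. Superoxide, a by-product of respiration, is turned into hydrogen peroxide by the superoxide dismutases. Hydrogen peroxide is then removed by catalase in peroxisomes, by glutathione peroxidases at the expense of glutathione, and by peroxiredoxins, which thioredoxin returns to their reduced form. Dopamine neurons are known for a high load of oxidants, since breakdown of dopamine itself releases hydrogen peroxide.

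Of 3455 wells, 2035 were kept, with 44 to 305 per plate, and the kept wells of a plate held between 1435919 and 5408710 counts. Slc32a1, which encodes the vesicular GABA transporter, was found on all 9 plates at 158 to 325 CPM (counts scaled to a common library size). The sorts differed in their defining genes: Pitx3 was between 0 and 0.38 CPM on the VGAT plates and at 147 and 78.0 CPM on the VGAT+PITX3 plates, while Gad1 was at 796 CPM or more on the VGAT plates and at 14.5 and 10.3 CPM on the VGAT+PITX3 plates. Markers of astroglia and radial glia (6 genes) summed to 410 CPM on VGAT P0 replicate 2, to 166 and 156 CPM on the VGAT+PITX3 plates and to between 13.8 and 23.2 CPM on the other 6 VGAT plates. Microglia markers (7 genes) summed to 71.7 CPM on VGAT P0 replicate 2, to 49.8 CPM on VGAT E16 replicate 2 and to at most 6.47 CPM elsewhere. Erythroid markers summed to at most 5.35 CPM on any plate. The cell names carry 2 plate labels each. The first matches the sample titles and is used here, and the second gives the other stage for 4 of the 7 VGAT plates (E16 replicates 3 and 4, P0 replicates 1 and 3). With the stages of the first label edgeR called 624 genes (4.58% of those tested), and with those of the second label it called 1 gene, with 854 genes at an unadjusted p under 0.05. In sums over a plate, fewer cells with a transcript and less RNA per cell cannot be told apart.

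Upstream sequences are shown for the genes with the largest values of P0 over E16 (Prdx1, Gpx3, Gpx4) and for Sod1, because a core of the antioxidant response element, the letters TGACNNNGC bound by the oxidant-sensing factor NRF2, was found in the windows of Prdx1 and Sod1. The motif was searched on both strands of RefSeq windows from 250 bases before to 50 bases after each annotated start (GRCm38.p6). It was in 2 of the 13 windows of these 10 genes and in 12.4% of all 32851 windows. The bases of a window that lie before the first exon met in that window (GENCODE M21) are printed 5′ to 3′ on the plus strand, on which these 4 genes lie, with the motif in capitals, read there as its reverse complement GCNNNGTCA and with positions counted from the annotated start.
Prdx1, chr4:116685349-116685543, motif from position -133: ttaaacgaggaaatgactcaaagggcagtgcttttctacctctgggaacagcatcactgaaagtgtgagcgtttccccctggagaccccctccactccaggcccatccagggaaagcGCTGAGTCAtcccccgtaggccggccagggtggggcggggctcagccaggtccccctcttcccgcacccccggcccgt
Sod1, chr16:90220512-90220753, motif from position -56: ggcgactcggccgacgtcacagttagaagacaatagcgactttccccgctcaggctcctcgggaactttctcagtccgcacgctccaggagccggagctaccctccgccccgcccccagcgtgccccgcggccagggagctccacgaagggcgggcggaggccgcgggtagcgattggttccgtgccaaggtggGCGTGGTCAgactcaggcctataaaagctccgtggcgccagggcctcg
Gpx3, chr11:54902604-54902771, no match: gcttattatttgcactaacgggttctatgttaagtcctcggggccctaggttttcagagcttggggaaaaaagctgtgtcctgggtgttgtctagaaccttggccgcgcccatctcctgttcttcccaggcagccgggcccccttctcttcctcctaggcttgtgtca
Gpx4, chr10:80053315-80053487, no match: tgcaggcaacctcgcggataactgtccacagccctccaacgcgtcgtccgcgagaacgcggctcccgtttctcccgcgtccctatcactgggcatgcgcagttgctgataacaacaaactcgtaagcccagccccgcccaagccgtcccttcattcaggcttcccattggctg
The match of Prdx1 also holds the letters TGAGTCA of the AP-1 motif, found on either strand in 5.2% of all windows. Gpx4 has 4 annotated windows, of which 1 is shown. The stretches of Gpx3 and Gpx4 lie inside the genes as GENCODE annotates them, which begin further upstream at chr11:54902453 and chr10:80047166. A match is a description of the letters only.

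Among the glutathione peroxidases, all 3 had higher levels at P0 than at E16 in VGAT cells, with the widest gap for Gpx3, the secreted form. Gpx3 was at 11.8, 15.2, 7.80 and 6.94 CPM on the E16 plates and at 33.6, 43.3 and 40.0 CPM on the P0 plates. Every P0 plate was above every E16 plate, and the lowest P0 plate was above the highest E16 plate by more than the whole range at E16. The mean moved from 10.4 ± 3.80 (SD, n = 4) to 39.0 ± 4.93 CPM (SD, n = 3), a log2 fold change of 1.92 (SE 0.24).

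Gpx4, which reduces lipid peroxides in membranes and protects cells from ferroptosis, was at 23.7, 18.3, 19.4 and 15.9 CPM at E16 and at 40.4, 52.8 and 46.7 CPM at P0. The groups did not overlap, and the means of 19.3 ± 3.25 (SD, n = 4) and 46.6 ± 6.21 CPM (SD, n = 3) gave a log2 fold change of 1.29 (SE 0.17). Gpx1, the abundant cytosolic form, was at 74.9, 81.4, 83.1 and 86.9 CPM at E16 and at 92.8, 108 and 106 CPM at P0. Its groups did not overlap either, but the gap was small, with a log2 fold change of 0.34 (SE 0.11), which was 0.13 with wells thinned to 4000 counts. Gpx3 had no intron counts on any plate, and Gpx4 had at most 6. Gpx1 is annotated as exon over its whole length (1441 bases), so it could have none.

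The peroxiredoxins did not move together. Prdx1, a cytosolic form, was at 40.2, 46.0, 38.6 and 52.9 CPM at E16 and at 53.8, 121 and 87.3 CPM at P0. The groups did not overlap, though VGAT P0 replicate 1 lay only just above the highest E16 plate, and the P0 plates spread widely (87.4 ± 33.6 CPM, SD, n = 3, against 44.4 ± 6.51 CPM, SD, n = 4). The log2 fold change was 1.00 (SE 0.21). The highest value was on VGAT P0 replicate 2, the plate with the highest glial marker level, and it was 119 CPM without the wells in which over 0.1% of counts came from astroglia and oligodendrocyte markers (8 wells of that plate). Microglia markers, at 71.7 CPM on this plate, were not part of that limit.

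Prdx2, the main peroxiredoxin of neurons, was at 382, 335, 385 and 383 CPM at E16 and at 386, 318 and 442 CPM at P0. The P0 plates lay on both sides of the E16 plates (log2 fold change 0.05, SE 0.13). Prdx5, found in mitochondria, peroxisomes and cytosol, was at 153, 181, 143 and 150 CPM at E16 and at 166, 212 and 211 CPM at P0. VGAT P0 replicate 1 fell within the E16 range, so that the groups overlapped (0.34, SE 0.13). Txn1, the cytosolic thioredoxin, showed the same arrangement, with 161, 163, 180 and 174 CPM at E16 and 166, 208 and 215 CPM at P0 (log2 fold change 0.23, SE 0.12, and 0.08 in exon counts alone).

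Of the superoxide dismutases, the cytosolic copper-zinc form Sod1 was at 144, 124, 159 and 163 CPM at E16 and at 177, 209 and 185 CPM at P0. The groups did not overlap, and the log2 fold change was 0.38 (SE 0.12). Sod1 had 47 to 152 intron counts a plate, more than the other 9 genes on most plates, and its log2 fold change was 0.21 in exon counts alone. It overlaps Scaf4 on the opposite strand (2481 counts over the 9 plates, and 5305 for Sod1), and whether the counting used strand is not given in the sources used here. Prdx5 likewise overlaps Trmt112 (1176 counts, and 5461 for Prdx5), and Prdx2 overlaps Rnaseh2a (319) and Junb (67, and 12313 for Prdx2). Gpx4 (832 counts) has a pseudogene with counts of its own, Gpx4-ps2 (44), with which reads may be shared. The mitochondrial manganese form Sod2 was at 51.0, 57.8, 47.4 and 45.8 CPM at E16 and at 41.7, 50.0 and 45.0 CPM at P0. It was the only one of the 10 with a lower mean at P0, and its groups overlapped (log2 fold change -0.14, SE 0.14, turning to 0.03 with wells thinned to 4000 counts). Cat was at 29.3, 25.1, 22.4 and 24.4 CPM at E16 and at 25.6, 30.6 and 25.1 CPM at P0, with overlapping groups (0.11, SE 0.16).

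**Figure D1:**
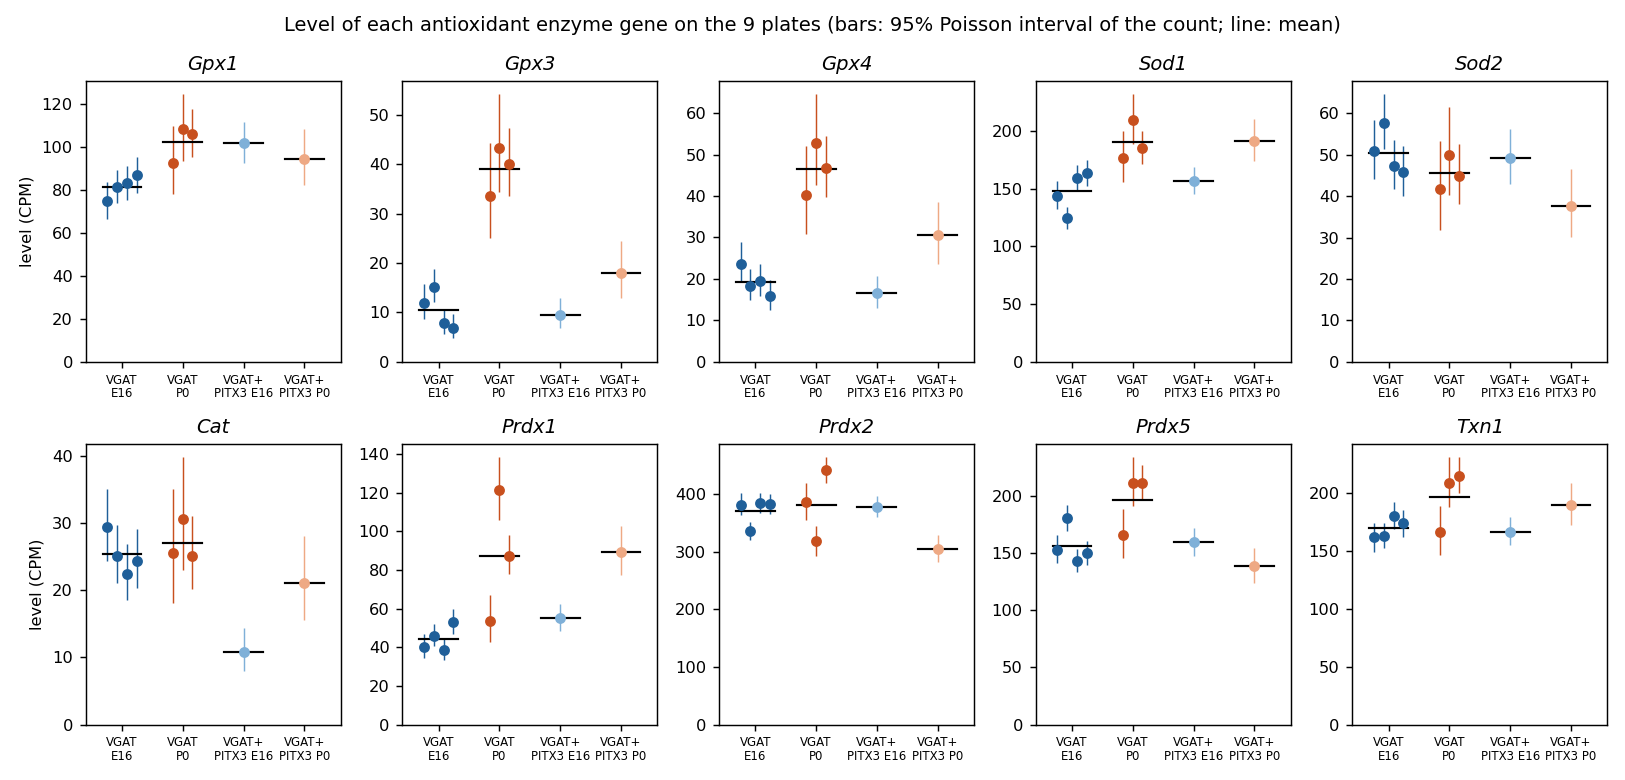
Level in CPM (vertical axis, from 0) of each gene on the 9 plates, with the 95% Poisson interval of the count as a bar and the group mean as a line. Gpx3 sits between 6.94 and 15.2 CPM on the VGAT E16 plates and between 33.6 and 43.3 CPM on the VGAT P0 plates, whereas Prdx2 and Sod2 overlap between the stages.

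For 5 of the 10 genes (Gpx1, Gpx3, Gpx4, Sod1, Prdx1) every VGAT plate at P0 was above every VGAT plate at E16, which held for 9.87% of all 13639 genes tested. For none of the 10 was every P0 plate below every E16 plate (10.6% of all genes), and 5 overlapped. The mean at P0 was higher for 9 of the 10 and for 50.2% of all genes, and it was over 1.5-fold higher for 3 of the 10 (Gpx3, Gpx4, Prdx1) and for 9.77% of all genes. The genes were chosen on this contrast, so nothing is read from these counts. With the stages of the second plate label, the log2 fold changes of Gpx3 (-0.54), Gpx4 (-0.21), Prdx5 (-0.09), Prdx2 (-0.09) and Cat (-0.05) changed sign, and the median over the 10 genes was -0.05, against 0.34 with the first label. Leaving out each plate in turn kept that median between 0.29 and 0.41.

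**Figure D2:**
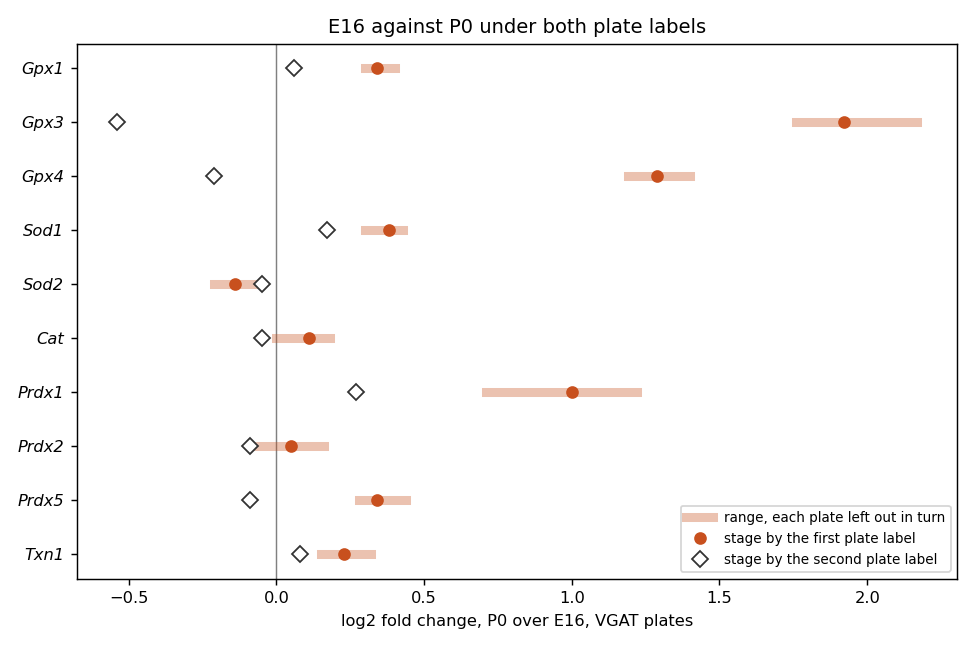
Log2 fold change of P0 over E16 on the VGAT plates (horizontal axis) with the stages of the first plate label (filled circles), its range when each plate is left out in turn (bands) and with the stages of the second plate label (open diamonds). The bands of Gpx3 (1.76 to 2.17) and Gpx4 (1.19 to 1.40) lie far from their open diamonds at -0.54 and -0.21.

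In cells with tdTomato and GFP, with 1 plate per stage and no replicate check, intervals cover counting error only. Gpx3 was at 9.497 CPM (42 counts) at E16 and at 17.9 CPM (40 counts) at P0, a ratio of 1.89 (95% Poisson interval 1.19 to 2.98). Gpx4 moved from 16.5 to 30.5 CPM (ratio 1.85, 1.31 to 2.61) and Prdx1 from 55.0 to 89.3 CPM (ratio 1.62, 1.34 to 1.97). Cat, whose groups overlapped on the VGAT plates, was at 10.9 CPM (48 counts) at E16 and at 21.1 CPM (47 counts) at P0 here, a ratio of 1.94 (1.27 to 2.97).

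The other genes differed less. Sod1 was at 157 and 192 CPM (ratio 1.22, 1.081 to 1.38) and Txn1 at 166 and 190 CPM (ratio 1.14, 1.01 to 1.29). Of them, 3 were lower at P0, with intervals below 1: Sod2 at 49.3 and 37.7 CPM (ratio 0.764, 0.587 to 0.987), Prdx2 at 378 and 305 CPM (ratio 0.808, 0.738 to 0.884) and Prdx5 at 159 and 139 CPM (ratio 0.869, 0.758 to 0.995). With wells thinned to 4000 counts the log2 ratio of Prdx5 was -0.57, against -0.20, and that of Prdx1 was 1.06, against 0.70. The ratio of Prdx5 changed sign in wells with at least 85% exon counts (0.37 on the log2 scale). Gpx1 was at 102 CPM at E16 and 94.6 CPM at P0, and its interval held 1 (ratio 0.928, 0.784 to 1.10). In this sort 4 of the 10 genes were over 1.5-fold higher at P0, as were 16.9% of all 14624 genes tested, and none was over 1.5-fold lower (12% of all genes). The interval lay above 1 for 6 of the 10 (17.3% of all genes) and below 1 for 3 (14.8%). Whether the difference between stages differs between the sorts was not tested, since the genes were chosen on these contrasts.

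**Figure D3:**
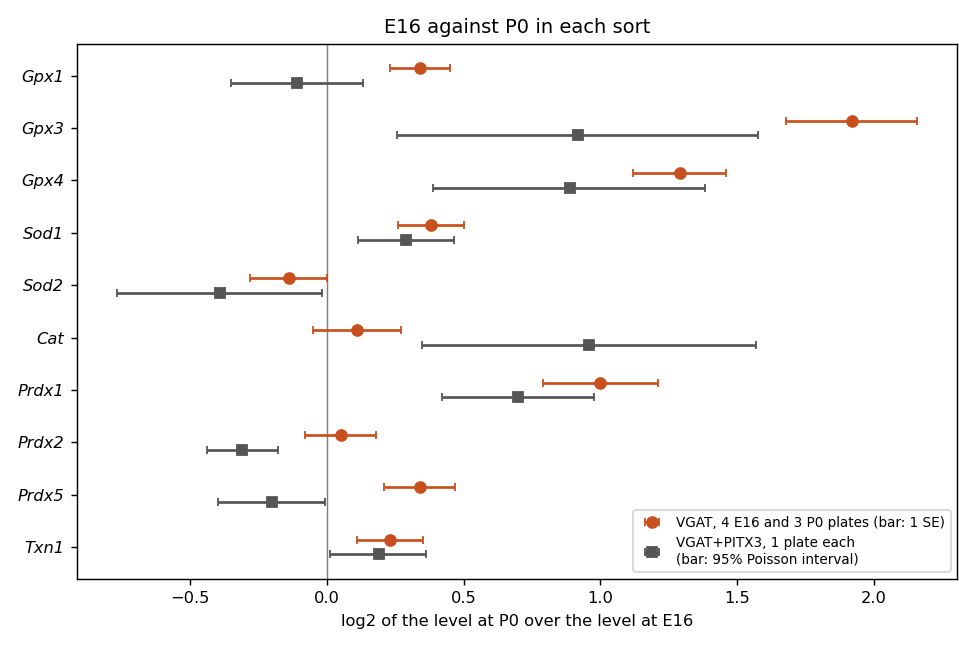
Log2 of the level at P0 over the level at E16 (horizontal axis) for VGAT cells (circles, bar 1 SE, 4 and 3 plates) and VGAT+PITX3 cells (squares, bar 95% Poisson interval, 1 plate each). Gpx3, Gpx4 and Prdx1 lie above 0 in both sorts, and Cat lies at 0.11 in VGAT cells and at 0.96 in VGAT+PITX3 cells.

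Because plates differed in depth, shares of cells with a transcript were computed on 4000 counts drawn from each cell, and 79 of the 2035 cells were too shallow for this (plate medians of 7587 to 34751 counts per cell). Gpx3 was found in 2.19%, 5.26%, 4.03% and 2.39% of cells on the VGAT E16 plates and in 9.30%, 15.98% and 14.8% on the VGAT P0 plates. Gpx4 was found in 3.95% to 10.4% of cells at E16 and in 14.2% to 18.6% at P0, and Prdx1 in 13.4% to 17.8% and in 20.9% to 37.1%. The groups of these 3 genes did not overlap in shares at this depth. At 8000 counts per cell Prdx1 overlapped, with 27.9% on VGAT P0 replicate 1 and up to 32.9% at E16. For 2 counts or more at 4000 counts per cell, Gpx3 and Gpx4 were each found in 0 of 43 cells of VGAT P0 replicate 1, which allows a share of up to 8.22% (Clopper-Pearson), and Prdx1 overlapped, with 2.33% on that plate and up to 2.39% at E16. Without thinning all 3 overlapped: VGAT P0 replicate 2 was at 22.4% for Gpx3, 32.9% for Gpx4 and 54.8% for Prdx1, and the highest E16 plates were at 22.8%, 40.0% and 58.8%. The mean unthinned shares were 14.98% and 37.5% for Gpx3, 31.4% and 53.1% for Gpx4, and 50.8% and 71.6% for Prdx1 at E16 and P0. Prdx5, whose levels overlapped, was found in 42.0% to 45.6% of thinned cells at E16 and in 48.8% to 55.2% at P0. Gpx1 and Sod1, whose levels did not overlap, overlapped in shares at 4000 counts per cell, with 27.6% to 32.2% at E16 and 30.2% to 34.5% at P0 for Gpx1, and 38.6% to 52.0% and 48.8% to 56.2% for Sod1. At 8000 counts per cell Sod1 did not overlap, with 61.6% to 69.7% at E16 and 74.3% to 75.3% at P0. Gpx1 still did, with 44.6% to 46.4% and 44.2% to 52.9%.

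In the VGAT+PITX3 sort the thinned shares went from 3.01% to 4.82% for Gpx3, with 95% Clopper-Pearson intervals of 1.39% to 5.64% and 2.52% to 8.27% that overlap. For Prdx1 they went from 14.4% (10.6% to 18.9%) to 28.9% (23.4% to 34.98%). Its unthinned shares were 48.7% and 48.3%, on a P0 plate whose median depth was 7977 counts per cell against 14562 at E16. Prdx5 went the other way, from 47.5% (41.7% to 53.3%) to 32.9% (27.1% to 39.2%), and Prdx2 was found in 72.6% (67.1% to 77.6%) and 64.3% (58.0% to 70.2%) of cells. Cat was found in 2.68% and 5.62% of these cells at E16 and P0, below the lowest VGAT plate at 7.05%.

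**Figure D4:**
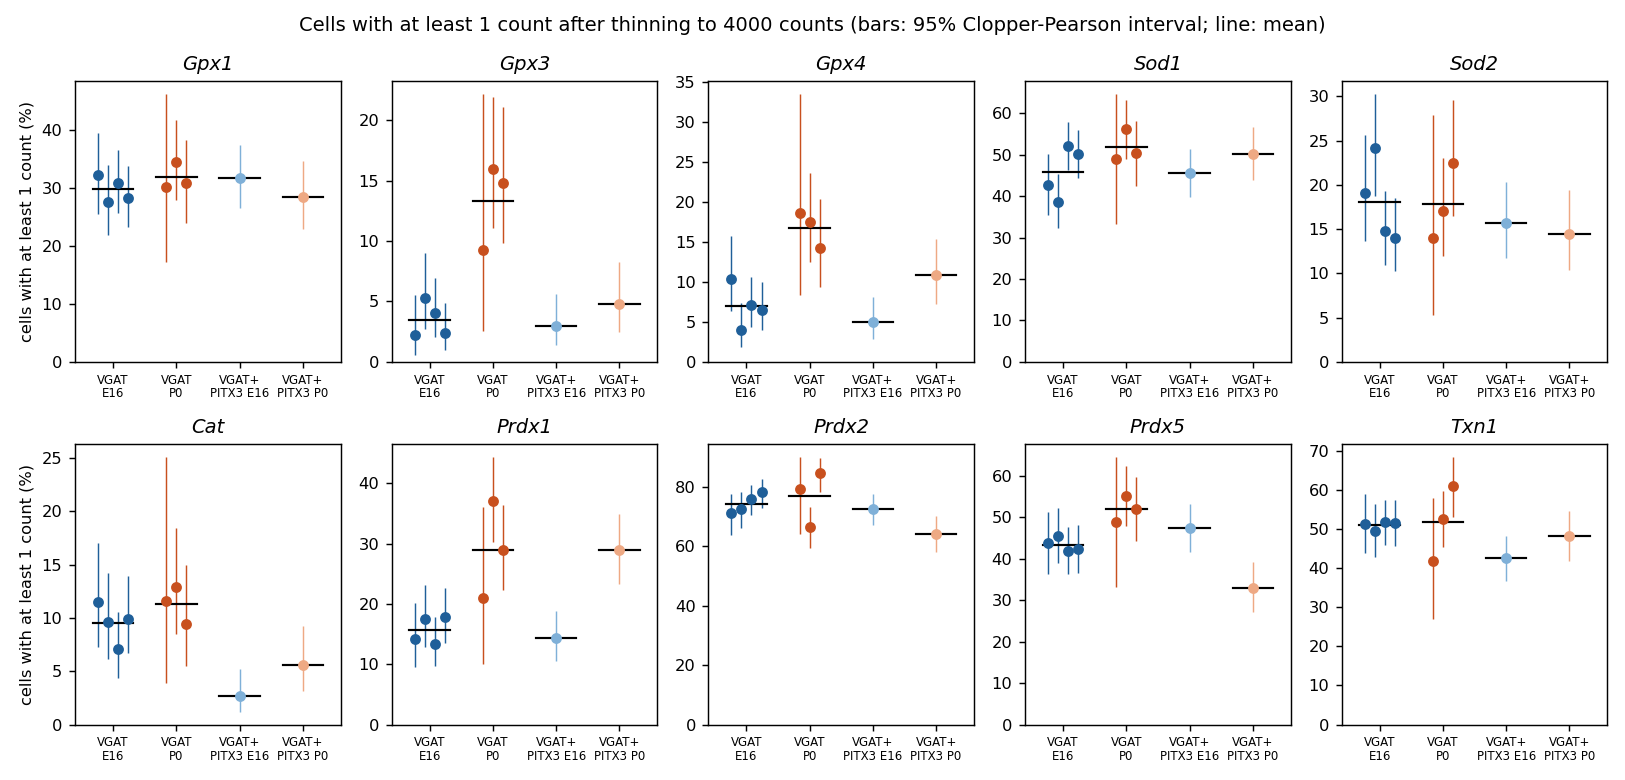
Cells with at least 1 count of each gene after thinning to 4000 counts per cell, in % (vertical axis, from 0), per plate with the 95% Clopper-Pearson interval as a bar and the group mean as a line. Gpx3 is found in at most 5.26% of cells on any E16 plate, and Cat in fewer cells on both VGAT+PITX3 plates than on any VGAT plate.

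The VGAT+PITX3 plates were also compared with the VGAT plates, with stage in the model. The genes were chosen with the levels of these same plates in view, so the test is not independent of that choice and nothing is read from it beyond the values. Cat was the only one of the 10 past the threshold, and it was lower in VGAT+PITX3 cells. It was at 26.1 ± 2.85 CPM (SD, n = 7, range 22.4 to 30.6) on the VGAT plates and at 10.9 and 21.1 CPM on the VGAT+PITX3 plates, both below all VGAT plates. The log2 fold change was -0.81 (SE 0.22, edgeR adjusted p = 0.0294). Of all 14624 genes tested 8.93% were called, so that 1 call in 10 is near the background. The call rests on the VGAT+PITX3 E16 plate: without it the log2 fold change was -0.36 (edgeR adjusted p = 0.590), and without the VGAT+PITX3 P0 plate it was -1.22 (edgeR adjusted p = 0.0100). With wells thinned to 4000 counts it was -1.40 (edgeR adjusted p = 0.00554). It was also lost, at about the same size, with the stages of the second plate label (-0.77, edgeR adjusted p = 0.0828) and with the replicate number as a block (-0.90, edgeR adjusted p = 0.0898), and adjusted p-values over all alternatives that tested Cat lay between 0.00554 and 0.590. Without the wells with over 0.1% glial marker counts it was as large (-0.83, adjusted p = 0.0282).

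Gpx3 and Gpx4 were also lower on average in VGAT+PITX3 cells, by values that did not pass the test: the log2 fold change of Gpx3 was -0.62 (SE 0.30, edgeR adjusted p = 0.313) and that of Gpx4 -0.41 (SE 0.19, edgeR adjusted p = 0.270). The value of Gpx3 was -1.14 without the VGAT+PITX3 E16 plate and -0.14 without the P0 plate, and that of Gpx4 was -0.63 and -0.23. For the other 7 genes the log2 fold change was between -0.21 (Prdx5) and 0.17 (Prdx1), with adjusted p of 0.556 or more.

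Within the VGAT+PITX3 plates, cells with a count of the dopamine transporter gene Slc6a3 (187 of 304 cells at E16, 137 of 271 at P0) were set beside cells without one. None of the 10 genes was over 1.5-fold higher in the same cells on both plates (5.49% of all genes) or lower on both (5.36%). Prdx1 was at 59.0 CPM in cells with Slc6a3 and at 39.6 CPM in cells without at E16 (ratio 1.49, 95% Poisson interval 1.10 to 2.03), and at 82.2 and 88.8 CPM at P0 (0.925, 0.694 to 1.24). Txn1 was at 175 and 128 CPM at E16 (ratio 1.37, 1.16 to 1.63) and at 193 and 166 CPM at P0 (1.16, 0.954 to 1.42). Gpx4 was at 36.0 and 20.8 CPM at P0 (ratio 1.73, 1.02 to 3.02), and at 15.4 and 16.8 CPM at E16. Prdx5 was lower in cells with Slc6a3 at P0, at 116.6 and 151 CPM (ratio 0.771, 0.613 to 0.970), and at 153 CPM in both at E16. Cells with more counts are more likely to show Slc6a3, and the part of depth in these ratios was not tested.

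Six3 and Pax5 encode transcription factors that mark different GABA neurons of the substantia nigra pars reticulata. Cells with Six3 and no Pax5 (19 to 131 per VGAT plate) were compared with cells with Pax5 and no Six3 (5 to 69 per plate), with the plate as a block over 7 plates. Any count in an unthinned well placed a cell, so the classes depend on depth and need not be pure lineages. The part of depth was not tested. None of the 10 genes passed the threshold in edgeR or in DESeq2, where edgeR called 2.85% of 9973 genes, and 2 had an unadjusted p under 0.05, as did 1103 of all 9973 genes. Both were lower in the Six3 cells: Txn1 (log2 fold change -0.34, SE 0.11, edgeR adjusted p = 0.138) and Prdx1 (-0.45, SE 0.15, edgeR adjusted p = 0.164). The Pax5 cells gave only 0 to 9 counts of Gpx3 a plate. They gave 3 counts each of Gpx4 and Cat on VGAT E16 replicate 1. For these genes the lack of a call says little.

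Prdx1 was at 37.6, 43.0, 28.7 and 48.5 CPM in Six3 cells of the E16 plates against 69.9, 62.9, 52.9 and 57.2 CPM in Pax5 cells, and at 57.2, 127 and 86.6 CPM against 54.0, 136 and 112 CPM at P0. It was lower in the Six3 cells on 6 of the 7 plates. The exception was VGAT P0 replicate 1, where 5 Pax5 cells gave 10 counts. Txn1 was at 163, 152, 156 and 159 CPM against 163, 218, 213 and 209 CPM at E16, and at 167, 200 and 205 CPM against 146, 232 and 289 CPM at P0. Txn1 was lower in the Six3 cells on 5 of the 7 plates. Without VGAT P0 replicate 1, Txn1 passed the threshold (log2 fold change -0.40, edgeR adjusted p = 0.0324).

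**Figure D5:**
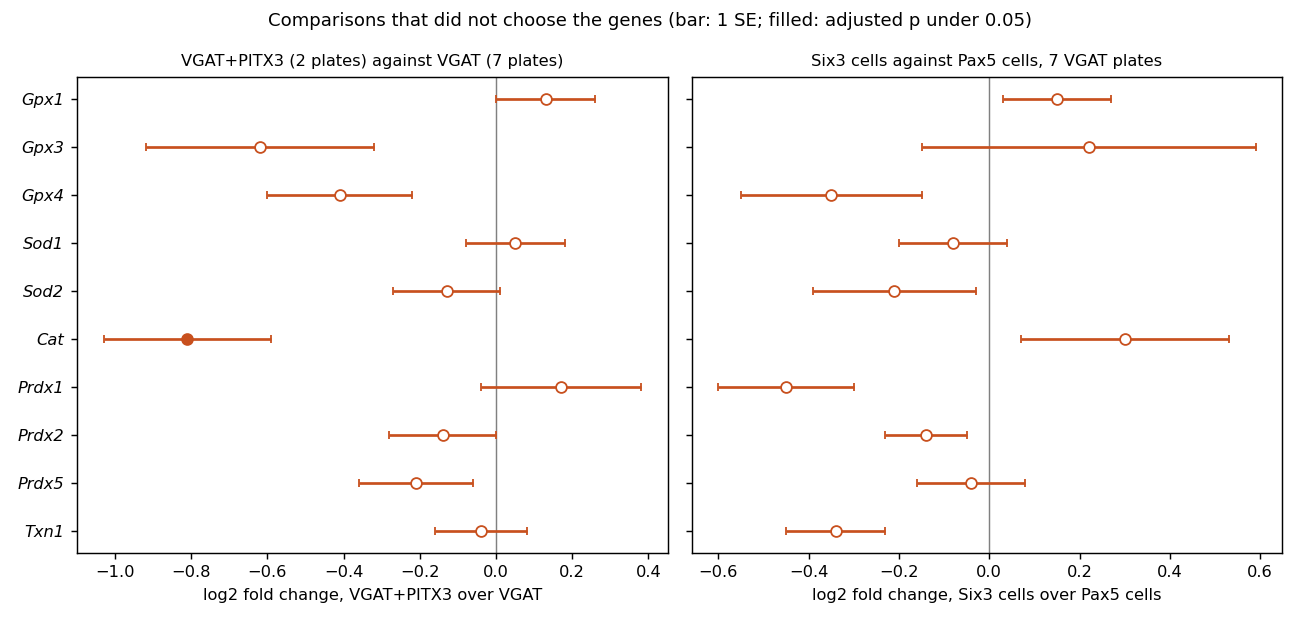
Log2 fold change with 1 SE (horizontal axis) of each gene between VGAT+PITX3 and VGAT plates (left) and between Six3 and Pax5 cells of the VGAT plates (right), with filled points for an adjusted p under 0.05. Cat, at -0.81 on the left, is the only filled point. The title printed on the figure does not strictly hold, since the genes were chosen with the levels of these same plates in view.

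Other genes of the same pathways were taken from lists of 88 genes (further peroxidases and thioredoxin enzymes, glutathione enzymes, the NRF2 axis, selenoproteins, and enzymes that form oxidants, or that form or limit lipid peroxides). Between E16 and P0 in VGAT cells, 73 of them were tested, 3 were higher at P0 (2.84% of all genes) and 0 were lower (1.74%), by edgeR at an adjusted p of 0.05. Their median log2 fold change was 0.16, against 0.02 for all genes, and 52 of the 73 were above 0. Over all genes, 50.2% had a higher mean at P0. The lists were chosen with earlier results of these data known, so these counts and tests are not independent of that choice. Gstp1, a glutathione transferase, was at 14.3 ± 0.615 CPM (SD, n = 4) at E16 and 29.7 ± 3.90 CPM (SD, n = 3) at P0 (log2 fold change 1.07, SE 0.16, edgeR adjusted p = 0.00948). Mgst3, a membrane-bound glutathione transferase, moved from 45.5 ± 0.662 to 77.0 ± 20.9 CPM (0.78, SE 0.16, edgeR adjusted p = 0.0210). Selenom, a selenoprotein of the endoplasmic reticulum, moved from 36.0 ± 11.3 to 92.3 ± 24.2 CPM (1.37, SE 0.23, edgeR adjusted p = 0.0110). Some calls were lost while the log2 fold change stayed near its size. This held for Gstp1 with wells thinned to 4000 counts (1.18, edgeR adjusted p = 0.0537) and for Selenom without P0 replicate 3 (1.36, edgeR adjusted p = 0.0595). Mgst3 lost its call without VGAT E16 replicate 3 (0.77, edgeR adjusted p = 0.0753), E16 replicate 4 (0.78, 0.0610), P0 replicate 2 (0.62, 0.0717) or P0 replicate 3 (0.72, 0.0912), with the replicate block (0.76, 0.0673) and at 85% exon counts or more per well (0.83, 0.494). With the stages of the second plate label the log2 fold changes of Gstp1, Selenom and Mgst3 were -0.10, -0.18 and 0.08.

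Between the sorts, 78 of the 88 were tested, 2 were higher (4.73% of all genes) and 2 lower (4.2%) in VGAT+PITX3 cells. Gch1, the first enzyme of the synthesis of tetrahydrobiopterin, the cofactor of tyrosine hydroxylase, was at 3.35 ± 1.11 CPM (SD, n = 7) on the VGAT plates and at 72.4 and 64.6 CPM on the VGAT+PITX3 plates (log2 fold change 4.45, edgeR adjusted p = 1.52e-09). Nxn (nucleoredoxin) was at 35.7 ± 3.94 CPM (SD, n = 7) against 90.7 and 60.6 CPM (1.10, edgeR adjusted p = 0.000145). Gsto1, a glutathione transferase, was at 80.9 ± 7.18 CPM (SD, n = 7) against 47.7 and 43.1 CPM (-0.82, edgeR adjusted p = 0.000991). Msrb1, a selenoprotein that repairs oxidised methionine, was at 15.9 ± 4.51 CPM (SD, n = 7) against 8.14 and 6.28 CPM (-1.09, edgeR adjusted p = 0.0276). Without the VGAT+PITX3 E16 plate the calls of Nxn (0.78, edgeR adjusted p = 0.0740) and Msrb1 (-1.62, edgeR adjusted p = 0.0595) were lost. Msrb1 also lost its call without the P0 plate (-0.78, edgeR adjusted p = 0.327), with the replicate block (-0.73, 0.358) and with the second plate label (-1.10, 0.0673), and Gsto1 at 85% exon counts (-0.70, 0.614). Between Six3 and Pax5 cells 61 of the 88 were tested and 0 were called by edgeR, against 2.85% of all genes.

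Across the 9 plates, log2 levels of each gene were correlated with those of all 14624 genes tested, as a description over plates that share stage, sort and depth. Gpx3 was most like Tspan17 (r = 0.978), Aldoa (0.971) and Clu (0.970), and Prdx1 most like Tmem219 (0.998), Def6 (0.979) and Snx15 (0.973). Gpx4 was most like Gm12328 (0.983), Ndufs8 (0.978) and Gm46344 (0.970), and Txn1 like Gm12895 (0.975), Ptges3 (0.957) and Mpc2 (0.947). Gm12328, Gm46344 and Gm12895 are annotated as processed pseudogenes, so reads may be shared with a parent gene. Gpx1 was most like S100a10 (0.982), Ulk4 (0.973) and Rab11a (0.962), and Sod1 like Wdr19 (0.989), Gm17949 (0.975) and Phkg1 (0.975). For Sod2 the order was Ablim3 (0.973), Hnrnpc (0.923) and Atat1 (0.920), for Prdx2 Nat8f1 (0.952), Ufl1 (0.928) and Mettl14 (0.919), and for Prdx5 Zfp414 (0.962), Particl (0.962) and Tsr2 (0.952). Among the 10 genes themselves, Gpx3 and Gpx4 had the highest correlation (r = 0.952, n = 9 plates).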

How the data were processed

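Wells of 9 plates were sequenced by SORT-seq. The authors aligned reads with STAR (genome build mm10 in the submitters' notes) and counted distinct molecular barcodes for every gene in each well. As deposited, the tables give expected counts of exons, introns and both, with a correction for molecules sharing a barcode and no scaling to depth: 100% of the values above 0 were within 0.001 of what 6 random bases give, the length in the labels, whereas the study's methods state 4. They were rounded after summing. Whether the counting used strand is not given in the sources used here.

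A well was kept if it had 2000 genes or more, no more than 50000 counts and under 15% mitochondrial counts. The study's methods also ask for at least 85% exonic; applied to the share of exon counts per well, this leaves 152 of the 2035 wells (4 to 37 per plate), so it was run as an alternative only. Plate sums of exon and intron counts went into the quasi-likelihood test of edgeR (4.0.16, R 4.3.3) after filterByExpr and TMM scaling, with Benjamini-Hochberg adjustment over all genes and a threshold of 0.05. CPM used TMM library sizes over 1435919 to 5408710 counts per plate, so that 3 counts are 0.555 to 2.09 CPM before TMM. DESeq2 1.42.0, other filters, depths and each plate left out were alternatives. Doublets were treated only by an alternative without wells over 2 times their plate's median count. All plates use the same 384 well barcodes, so shared barcodes carry no information on shared cells. Intervals of counts are exact, at 95%, and cover counting error only. On simulated data with 200 changed genes, 92.0%, 91.0% and 95.0% of 2-fold changes were called in the comparisons of stages, sorts, and Six3 and Pax5 cells. The simulation gave all genes the same median dispersion, changed only genes above a count limit and added no plate differences. Its shares therefore do not apply to genes with few counts or a wider spread between plates.

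The members and lists were chosen with earlier results of these data known. Named were the 10 genes, list genes past the threshold, the 3 most like genes for genes whose highest correlation was over 0.95, and genes that check the sorts. Annotation is GENCODE M21, and sequences are from RefSeq. The deposited cell metadata was not used.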

Additional observations from a re-analysis of the deposited data

Results flagged for a closer look

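Prdx2 on VGAT E16 replicate 2 was at 335.4 CPM, apart from the other 3 E16 plates, which lay between 382 and 385 CPM. The gap was wide against the range of the 4 plates (Dixon's criterion, which chance meets in about 1 of 20 groups). Gpx1 went opposite ways in the sorts: every VGAT plate at P0 was above every VGAT plate at E16, while its log2 ratio of P0 over E16 was -0.11 in VGAT+PITX3 cells, with an interval of the ratio that held 1. This difference between the sorts was not tested.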

How the results depend on the processing

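Between E16 and P0 on the VGAT plates, 624 genes were called, and 944 with DESeq2, 1588 with no filter on low counts, 412 with wells thinned to 4000 counts, 0 with at least 85% exon counts per well (2674 genes tested) and, with the stages of the second plate label, 1. Leaving out each plate gave 76 to 833. The median log2 fold change of the 10 genes was -0.05 with the second label and 0.29 to 0.41 with each plate left out. It was 0.25 in exon counts and 0.26 without the filter on low counts. The median exon share of a cell was 72.1% to 76.7% on the VGAT E16 plates. On the VGAT P0 plates it was 75.2%, 80.6% and 80.1%, and its part in these values was not tested. Under the second label Gpx3 (-0.54), Gpx4 (-0.21), Prdx5 (-0.09), Prdx2 (-0.09), Cat (-0.05), Gstp1 (-0.10) and Selenom (-0.18) changed sign, and so did Sod2 in thinned wells (0.03) and Prdx2 without the filter (-0.02) and without VGAT P0 replicate 3 (-0.07). Between the sorts 1306 genes were called, with 201 at 85% exon counts and 625 to 1397 with each plate left out. The count of called members, 1 (Cat), was 0 at 85% exon counts, where Cat was not tested, and 0 with the second label, and 0 to 1 with each plate left out. Between Six3 and Pax5 cells 284 genes were called, with 541 without the filter, 1 at 85% exon counts, 178 in thinned wells and 131 to 371 with each plate left out, and 0 to 1 of the 10. The second label and the removal of wells with glial marker counts were alternatives chosen after seeing the data. The causes were not tested.

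The replicate number as a block gave 210 calls between stages, and it left 0 of the 10 genes called between the sorts (Cat -0.90, edgeR adjusted p = 0.0898), with Txn1 at 0.11. Plates with the same number correlated by 0.033, 0.025 and 0.032 in their deviations from the group means, so the numbers do not pair the samples. With no replicate block between Six3 and Pax5 cells 148 genes were called, with Gpx4 at 0.05 and Prdx5 at 0.01.

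Small values of genes past no threshold changed sign. Between the sorts these were, at 85% exon counts, Gpx1 (-0.01), Sod1 (-0.04), Prdx1 (-0.08) and Txn1 (0.21), in thinned wells Gpx1 (-0.05), Sod1 (-0.11) and Prdx1 (-0.04), and with each plate left out Gpx1 (-0.13 to 0.31), Prdx2 (-0.34 to 0.02) and Prdx5 (-0.52 to 0.02), while Sod1 reached 0 (0 to 0.08). Between Six3 and Pax5 cells they were Sod1 in thinned wells (0.11) and with each plate left out (-0.13 to 0.01), Prdx2 at 85% exon counts (0.04), and Prdx5 without the filter (0.04) and with each plate left out (-0.12 to 0.05). In VGAT+PITX3 cells the log2 ratios at 85% exon counts were 0.37 for Prdx5, a change of sign, 0.63 for Sod1, -0.45 for Prdx2 and 0.38 for Txn1. With 35 to 160 counts a plate behind Gpx3, Gpx4 and Cat, differences within their intervals were not detectable at this depth.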
